A study of Mus musculus with 8 samples.

Results

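Upb1, Hpgd, Sh2d1b1, Galnt9, Asprv1 and Plbd1 encode 5 enzymes and 1 signalling adaptor. They were chosen by name, because they stood at a few reads in untreated leukaemia cells and at 336 to 2441 reads per library after 6 days of Dox. They are 6 of the 12830 genes in the deposited tables. The values that chose them are the counts in Dox-treated against untreated libraries, so those differences are described here without a test. The choice fits 5 of the genes closely, with summed counts of 3 to 10 in the untreated pair. Plbd1 started higher, with 52.

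The cells were AML410, a mouse acute myeloid leukaemia with a monosomal karyotype and the genotype p53-/- shPU.1, on the C57BL/6 background. All groups thus lacked p53 and carried a short hairpin RNA against PU.1 linked to green fluorescent protein (GFP), which is on in untreated mice and is shut down by Dox given to the mice, so that endogenous PU.1 returns. GFP-positive bone marrow cells of leukaemic recipients were sorted from untreated mice (high GFP) and from mice given Dox for 2 days (high to intermediate GFP), 4 days (intermediate) or 6 days (low), with 2 libraries in each group. Time on Dox and gate therefore changed together and cannot be told apart. The leukaemia is 1 line, and the titles call the libraries of a group technical replicates while the design speaks of duplicate mice, so p-values measure only the spread between these libraries.

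PU.1, encoded by Spi1, is an ETS family transcription factor that binds purine-rich DNA and is required for monocyte and neutrophil development. Low activity of PU.1 is known to hold myeloid progenitors in an immature state. Mature phagocytes carry specialised enzymes for lipid mediators, membrane lipids and proteins that progenitors lack. The 6 genes act in unrelated steps: Upb1 in pyrimidine breakdown, Hpgd in prostaglandin inactivation, Galnt9 in protein glycosylation, Asprv1 in proteolysis, Plbd1 in lipid handling, and Sh2d1b1 in signalling below SLAM receptors.

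The libraries held 9262047 to 11213292 counts. Spi1, the restored gene, had 98 and 154 counts in the untreated libraries, 128 and 174 at day 2, 1036 and 1053 at day 4, and 1926 and 2116 at day 6. The leukocyte gene Ptprc was present in every library, from 317 counts in untreated replicate 2 to 6314 in day 6 replicate 2. Of 14 mature neutrophil markers, all measured, the summed level was 59269 and 72508 CPM (counts scaled by library size) at day 6 against 4038 and 2736 in untreated cells. Of 13 monocyte and macrophage markers 11 were measured, and they summed to 11321 and 10885 CPM at day 6 against 5553 and 5051 in untreated cells. At day 4 they summed to 12368 and 12974 CPM. Most of this sum was Ly6c2, with means of 6592 CPM at day 6 and 4771 CPM in untreated cells. All 11 were called higher at day 6 (edgeR adjusted p under 0.05, median log2 fold change 3.60). So were all 14 neutrophil markers (median 4.22), where 32.0% of all genes tested were called higher. Day 2 replicate 1 stood apart in B cell markers, which summed to 108 CPM there, 7.36 CPM in day 2 replicate 2 and 8.81 to 52.8 CPM in the other libraries. Over the 12330 genes tested, 6.13% were called either way at day 2 over untreated, 48.0% at day 4 and 63.6% at day 6 (edgeR adjusted p under 0.05). In bulk RNA, more cells of a type and more RNA per cell cannot be told apart, which holds for every value below.

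Upb1 (gene 103149, chromosome 10, 75406911 to 75441679, mm10) encodes beta-ureidopropionase, the last enzyme of uracil and thymine breakdown. It had 3 and 0 counts in the untreated libraries, 3 and 7 at day 2, 484 and 487 at day 4, and 690 and 645 at day 6. All 4 libraries of days 4 and 6 lay far above the other 4. The ratio of summed counts, scaled by library size, was 360 at day 4 over untreated (95% exact counting interval 123 to 1750) and 581 at day 6 over untreated (198 to 2820). At day 2 it was 3.98 (1.03 to 22.5), with single library counts that overlap between the groups. Such intervals take in only the error of counting, and reads amplified by PCR are not separate molecules.

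Hpgd (gene 15446, chromosome 8, 56294552 to 56321046) encodes the dehydrogenase that begins the inactivation of prostaglandins. It had 4 and 5 counts in the untreated libraries, 4 and 5 at day 2, 322 and 263 at day 4, and 558 and 536 at day 6. Its day 2 counts equalled those of untreated cells, and the scaled ratio was 1.19 (counting interval 0.420 to 3.40). At day 4 the ratio over untreated was 72.3 (37.8 to 159), and at day 6 it was 159 (83.3 to 348).

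Sh2d1b1 (gene 26904, chromosome 1, 170277318 to 170286769) encodes EAT-2, a small SH2 domain adaptor that binds the tails of SLAM family receptors and is best known from natural killer cells. It had 3 and 1 counts in the untreated libraries, 3 and 5 at day 2, 227 and 247 at day 4, and 340 and 391 at day 6. The untreated and day 2 libraries touched at 3 counts, and days 4 and 6 did not overlap with them or with each other. The ratio over untreated was 132 at day 4 (counting interval 51.2 to 486) and 239 at day 6 (92.8 to 878). Of 10 natural killer markers 4 were measured, and they summed to 107 and 96.5 CPM at day 6 against 133 and 113 CPM in untreated cells. Most of that sum was Nkg7, and the sum was highest at day 2, at 187 and 218 CPM. The killer receptor gene Klrb1c had 0 to 9 counts per library. Prf1 had 2 and 1 counts in untreated cells and 8 and 8 at day 6. Klrd1 had 16 and 11 counts in untreated cells and 12 and 17 at day 6. Of the 50-base words in the annotated transcripts of Sh2d1b1, 13.4% also occur in those of its copy Sh2d1b2, so part of its reads could belong to either gene.

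Galnt9 (gene 231605, chromosome 5, 110544032 to 110621383) encodes a polypeptide GalNAc transferase, an enzyme family that starts mucin-type O-glycosylation, and is known mainly from brain. It had 6 and 4 counts in the untreated libraries, 2 and 5 at day 2, 285 and 247 at day 4, and 336 and 378 at day 6. Its day 2 range overlapped with the untreated range. The ratio over untreated was 59.2 at day 4 (counting interval 31.9 to 124) and 93.2 at day 6 (50.4 to 195).

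Asprv1 (gene 67855, chromosome 6, 86628174 to 86629710) encodes a retroviral-like aspartic protease known from the epidermis, where it processes profilaggrin. It had 2 and 1 counts in the untreated libraries, 3 and 4 at day 2, 49 and 80 at day 4, and 556 and 873 at day 6. Its day 4 counts lay between those of the early libraries and day 6, with no overlap on either side. The ratio over untreated was 47.9 at day 4 (counting interval 16.0 to 235) and 622 at day 6 (212 to 3019). Of 8 keratinocyte markers 2 were measured, Krt10 and Trp63, and they summed to 0.113 and 0.540 CPM at day 6 against 3.83 and 4.36 CPM in untreated cells. The day 6 sums rest on 1 and 5 reads of Krt10, with 0 and 0 of Trp63. Keratinocyte content in the Asprv1 values was not tested.

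Plbd1 (gene 66857, chromosome 6, 136612071 to 136662303) encodes a phospholipase B domain protein known from human neutrophils. It had 32 and 20 counts in the untreated libraries, 25 and 9 at day 2, 213 and 292 at day 4, and 1579 and 2441 at day 6. Its untreated and day 2 ranges overlapped. The ratio over untreated was 0.781 at day 2 (counting interval 0.492 to 1.23), 10.8 at day 4 (8.11 to 14.7) and 101 at day 6 (76.8 to 135). In exons, none of the 6 genes overlapped with another gene of the GENCODE M21 annotation. Apart from Sh2d1b1, only Upb1 shared any 50-base words with transcripts of other genes (1.82%).

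**Figure D1:**
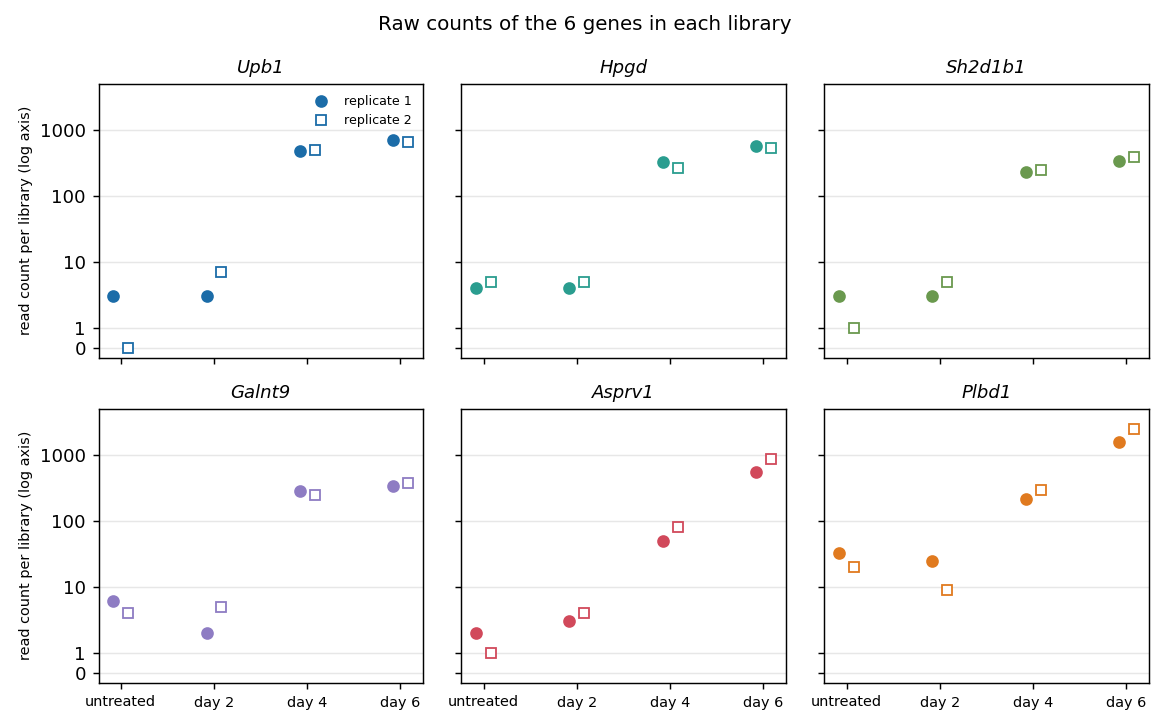
Read count per library (vertical log axis, with 0 drawn at the bottom tick) by days on Dox for each of the 6 genes, filled circles replicate 1 and open squares replicate 2. Counts stay at 0 to 32 in untreated and day 2 libraries, and Upb1, Hpgd, Sh2d1b1 and Galnt9 reach 227 to 487 at day 4. Asprv1 and Plbd1 gain most of their day 6 reads after day 4. On the log axis, their climb from untreated to day 4 is no smaller than that from day 4 to day 6.

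Levels between genes were compared per kilobase of gene length (RPKM, CPM divided by length), using the deposited gene lengths of 1433 to 2997 bases. At day 4 Upb1 was highest, at 31.8 ± 1.75 RPKM (SD, n = 2 here and below). Hpgd (16.0 ± 1.47), Sh2d1b1 (15.6 ± 1.72) and Plbd1 (12.1 ± 3.27) followed with overlapping spreads, then Galnt9 (8.33 ± 0.421) and Asprv1 (3.99 ± 1.54). At day 6 the order differed. Plbd1 led at 112 ± 30.8 RPKM, Upb1 (51.3 ± 3.93) and Asprv1 (51.1 ± 14.6) were alike within their spread, and Hpgd (35.1 ± 2.02), Sh2d1b1 (28.1 ± 1.96) and Galnt9 (13.1 ± 0.712) followed. Asprv1 thus moved from the lowest level of the 6 at day 4 to a level near that of Upb1 at day 6.

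**Figure D2:**
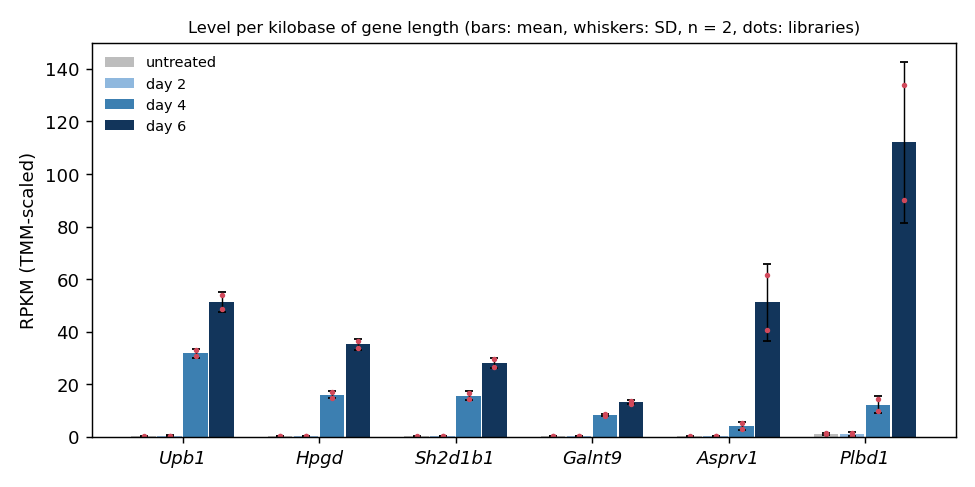
Level per kilobase of gene length (RPKM, vertical axis from 0) of the 6 genes in untreated, day 2, day 4 and day 6 cells, with bars for the mean, whiskers for the SD of 2 libraries and dots for the libraries. Plbd1 reaches 112 RPKM at day 6 with the widest spread, and Galnt9 is lowest at that day with 13.1 RPKM.

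The 6 genes followed 2 time courses. Upb1, Hpgd, Sh2d1b1 and Galnt9 had a large part of their day 6 level at day 4, whereas Asprv1 and Plbd1 had a small part of it. The day 4 level in CPM was 62.0% of the day 6 level for Upb1, 45.4% for Hpgd, 55.5% for Sh2d1b1 and 63.5% for Galnt9. It was 7.80% for Asprv1, with 4.71 to 12.5% over single pairs of libraries, and 10.8% for Plbd1, with 7.33 to 16.0%. Beside them stand the 1689 genes (13.7% of the 12330 tested) that were higher at day 6 than in untreated cells by over 1 on the log2 scale. Their median was 69.5%, with quartiles of 51.3 and 85.0%. Only 4 of the 1689 had a lower share than Asprv1, and 15 had a lower share than Plbd1. The 4 genes, named after their values were seen, were the red cell genes Alas2 (4.92%), Hbb-bs (6.37%), Slc4a1 (6.37%) and Hbb-b1 (7.23%). At day 2 the 6 genes stood at 0.449 to 0.987% of their day 6 level.

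**Figure D3:**
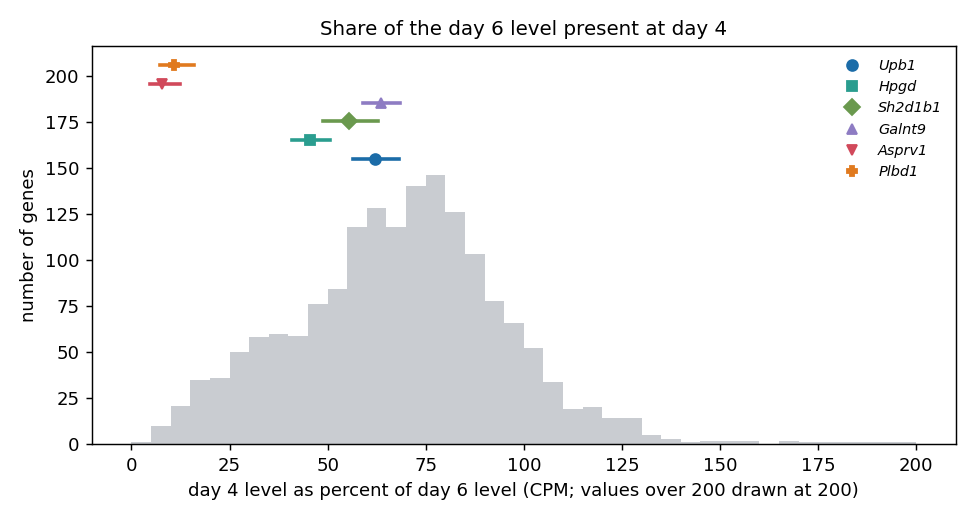
Histogram of the day 4 level as a percent of the day 6 level for the 1689 genes higher at day 6 by over 1 on the log2 scale (grey, number of genes), with a marker for each of the 6 genes and a line for the range over single pairs of libraries; marker heights have no meaning. Asprv1 and Plbd1 lie at 7.80 and 10.8%, near the left edge, and the other genes between 45.4 and 63.5%.

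Day 6 was then compared with day 4, a contrast between 2 Dox groups that leaves the untreated libraries out. The day 6 counts were among the values that chose the genes, so the choice favours genes that went on rising after day 4. The p-values below describe the 6 genes and are not independent of that choice. All 6 genes rose (edgeR quasi-likelihood test, adjusted over all genes), where 15.9% of the 12330 genes tested were called higher and 29.9% either way. Asprv1 averaged 78.5 ± 22.4 CPM at day 6 and 6.12 ± 2.37 CPM at day 4, a log2 fold change of 3.69 (SE 0.24, edgeR adjusted p = 6.96e-06). Plbd1 averaged 221 ± 60.8 CPM at day 6 and 23.9 ± 6.46 CPM at day 4, a log2 fold change of 3.21 (SE 0.24, edgeR adjusted p = 1.07e-05). They ranked 9 and 26 among all genes tested by size of rise. The other 4 rose less. Hpgd averaged 60.4 ± 3.47 CPM at day 6 and 27.4 ± 2.53 CPM at day 4 (log2 fold change 1.14, SE 0.11, edgeR adjusted p = 3.83e-05). Sh2d1b1 averaged 40.3 ± 2.81 CPM at day 6 and 22.3 ± 2.46 CPM at day 4 (log2 fold change 0.85, SE 0.13, edgeR adjusted p = 0.000661). Upb1 averaged 73.7 ± 5.65 CPM at day 6 and 45.7 ± 2.52 CPM at day 4, and rose by 0.69 on the log2 scale (SE 0.13, edgeR adjusted p = 0.00246). Galnt9, at 13.1 RPKM at day 6 and 8.33 RPKM at day 4, rose by 0.65 on that scale (SE 0.12, edgeR adjusted p = 0.00185). In each of the 6, both day 6 libraries lay above both day 4 libraries, but the share of all genes that did so was not counted. The 3689 genes called either way in this contrast numbered 1731 once day 4 replicate 1 was left out, 2132 for day 6 replicate 1 and 1726 for day 6 replicate 2. All 6 genes remained called without any single library.

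The genes also differed in how the libraries of a group compared. Asprv1 and Plbd1 were higher in replicate 2 than in replicate 1 at both late days, and the other 4 were close to even. For Asprv1 the ratio of replicate 2 to replicate 1 in CPM was 1.75 at day 4 (counting interval 1.21 to 2.56) and 1.51 at day 6 (1.35 to 1.68). For Plbd1 it was 1.47 at day 4 (1.23 to 1.77) and 1.48 at day 6 (1.39 to 1.58). The 4 other genes had ratios of 0.877 to 1.17 at day 4 and 0.897 to 1.10 at day 6. Over all genes with at least 20 counts in the pair, the central 90% of ratios ran from 0.762 to 1.37 at day 4 and from 0.789 to 1.28 at day 6. The 14 mature neutrophil markers moved the same way, with a median ratio of 1.49 at day 4 (range 1.01 to 3.03) and 1.21 at day 6 (1.01 to 1.56). The monocyte and macrophage markers had medians of 1.04 at day 4 (9 genes with enough counts) and 0.945 at day 6 (11 genes). Erythroid markers had ratios of 0.979 and 2.63 at day 4 (2 genes) and a median of 1.65 at day 6 (5 genes), with both medians above those of the neutrophil markers, at summed levels of 3.09 and 6.34 CPM at day 4 and 34.6 and 60.4 CPM at day 6. B cell markers had medians of 1.09 at day 4 (4 genes) and 1.55 at day 6 (8 genes), and those of mast cells, basophils and eosinophils 1.56 at day 4 and 0.882 at day 6 (7 genes each). In the day 2 pair Plbd1 was lower in replicate 2, at 0.280 (0.115 to 0.621), where the neutrophil median was 0.578, the erythroid median 0.166 (2 genes) and the B cell median 0.0612. From day 4 to day 6, all 14 neutrophil markers rose (median log2 fold change 2.43, against -0.02 over all genes), while 3 of 11 monocyte and macrophage markers rose and 1 fell (median 0.11, with 14.0% of all genes called lower). Of 5 erythroid markers 4 rose, each by more than the neutrophil median, from 3.16 (Hba-a1) to 4.29 (Alas2, edgeR adjusted p = 0.000424). No B cell marker of 8 was called (median 2.00). The part of neutrophil, erythroid or B cell content in the Asprv1 and Plbd1 values was not tested.

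**Figure D4:**
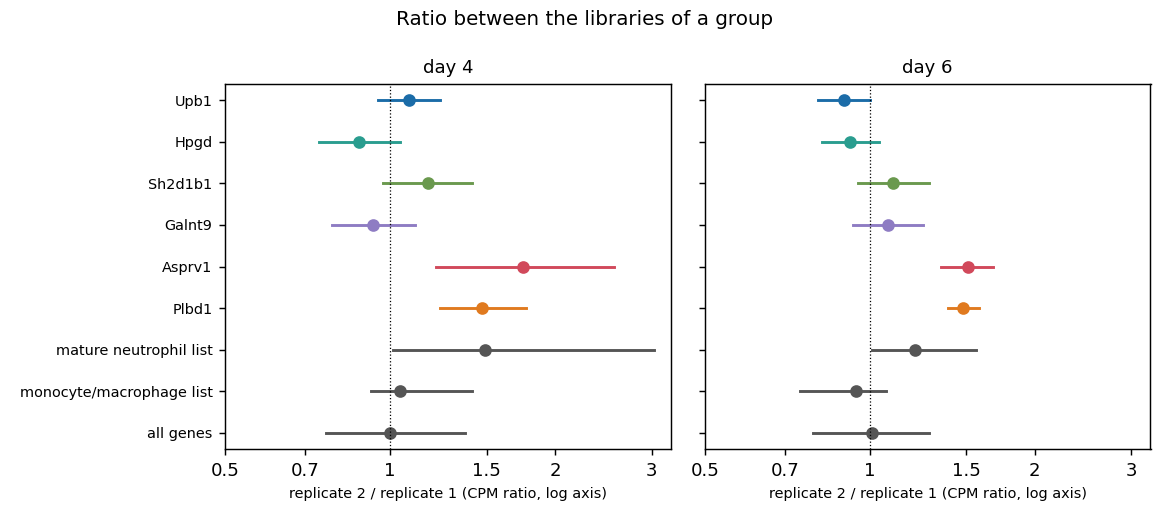
Ratio of replicate 2 to replicate 1 (CPM, log axis) within day 4 and within day 6 for the 6 genes, with 95% counting intervals, and the median ratio of the mature neutrophil markers, the monocyte and macrophage markers (lines: lowest to highest gene) and all genes (line: central 90%). Asprv1 and Plbd1 lie at 1.47 to 1.75, apart from the other 4 genes at 0.877 to 1.17.

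Set among genes that also began low, the 6 were at or near the top, except Plbd1 at day 4. Of the tested genes, 1343 had a summed untreated count of 3 to 52, the range the 6 genes span. Their median ratio over untreated was 1.09 at day 4 and 1.17 at day 6, and 64 of them at day 4 and 131 at day 6 were at 16-fold or more. At day 4 Upb1, Sh2d1b1 and Hpgd held ranks 1, 2 and 3, Galnt9 rank 5, Asprv1 rank 11 and Plbd1 rank 109. At day 6 Asprv1 held rank 1, Upb1 rank 2, Sh2d1b1 rank 4, Hpgd rank 8, Plbd1 rank 20 and Galnt9 rank 24. These ranks describe how the genes were picked and support nothing.

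The likeness of each gene to all other tested genes was measured as Pearson's r of log2(CPM + 1) over the 8 libraries, a description in which all points share the same libraries. Among the 6, Upb1, Hpgd, Sh2d1b1 and Galnt9 correlated with each other at 0.995 to 0.999, and Asprv1 with Plbd1 at 0.988. Between the 2 sets r was 0.900 to 0.947. Upb1 was most like Plekhm3 (0.9993), the leucine-rich repeat gene Lrrc25 and Ace, the angiotensin-converting enzyme gene. Hpgd was most like Padi2, a protein-arginine deiminase gene (0.9997), and Ap2a2 had 0.9984. Padi2 had 1725 and 1607 counts at day 6 against 39 and 44 in untreated cells. Sh2d1b1 was most like Ace (0.9992), the Toll-like receptor gene Tlr13 and Susd3, and Galnt9 was most like Ms4a6c (0.9985), Prkx and Spop. Asprv1 was most like Nadk (0.9987), the sialic acid receptor gene Cd33 and Trim30b. Cd33 had 29 and 23 counts in untreated cells, 103 and 129 at day 4 and 695 and 873 at day 6, a course with the same late step. Plbd1 was most like Ltf (0.9989), which encodes the neutrophil granule protein lactoferrin, then Mtss1 and Atp2c1. Ltf had 471 and 389 counts in untreated cells, 3699 and 5386 at day 4 and 36675 and 51707 at day 6, again with replicate 2 above replicate 1 at both late days. Such likeness is common here, since 155 to 238 genes reached r of 0.99 with each gene of the first set and 63 and 66 with Asprv1 and Plbd1.

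Because the genes move together, the 250 bases before each annotated start were searched for 2 short words on both strands, in RefSeq promoters of GRCm38.p6 for all 6 genes, 7 promoters in all since Galnt9 has 2. GAGGAA is the purine-rich core that PU.1 is known to favour, and ATTGC is an arm of the palindrome bound by C/EBP factors. GAGGAA, or its reverse complement TTCCTC, occurred in the promoters of Upb1 (bases -151 to -146 from the start), Hpgd (-230 to -225, opposite strand) and Sh2d1b1 (-45 to -40), and in none of the other 4 promoters. It occurs in 23.3% of all 32851 promoters of the table and in 22.7% of the 12172 promoters of tested genes. ATTGC or GCAAT occurred in none of the 7, and in 23.1% of all promoters. A match is only a match of letters. The 3 promoters with a match are shown with it in capitals, and that of Asprv1, the gene with the largest rise after day 4, has none. They lie at chr10:75406661-75406910, chr8:56294302-56294551, chr1:170277068-170277317 and chr6:86627924-86628173, all on the plus strand.
Upb1: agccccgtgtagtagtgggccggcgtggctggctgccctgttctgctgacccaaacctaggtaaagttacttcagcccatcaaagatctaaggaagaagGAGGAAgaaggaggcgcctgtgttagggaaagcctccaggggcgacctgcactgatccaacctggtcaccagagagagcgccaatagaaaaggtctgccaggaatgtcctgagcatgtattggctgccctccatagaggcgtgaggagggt
Hpgd: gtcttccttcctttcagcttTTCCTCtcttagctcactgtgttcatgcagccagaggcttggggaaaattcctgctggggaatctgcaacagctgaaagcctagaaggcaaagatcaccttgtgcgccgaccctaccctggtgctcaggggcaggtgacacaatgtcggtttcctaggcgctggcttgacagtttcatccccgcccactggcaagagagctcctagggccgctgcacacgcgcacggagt
Sh2d1b1: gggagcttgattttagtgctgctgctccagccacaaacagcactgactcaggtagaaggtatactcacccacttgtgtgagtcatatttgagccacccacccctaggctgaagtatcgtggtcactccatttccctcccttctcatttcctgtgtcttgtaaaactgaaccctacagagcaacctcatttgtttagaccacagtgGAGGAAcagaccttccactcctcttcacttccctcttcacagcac
Asprv1: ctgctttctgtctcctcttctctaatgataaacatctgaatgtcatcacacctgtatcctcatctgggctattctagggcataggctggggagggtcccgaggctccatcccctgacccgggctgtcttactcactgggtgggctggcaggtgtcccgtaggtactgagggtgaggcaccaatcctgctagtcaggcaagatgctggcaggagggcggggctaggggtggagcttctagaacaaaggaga

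Genes of the same pathways or families, listed from general knowledge, were compared between day 6 and untreated cells, where 32.0% of all genes tested were higher and 31.6% lower (edgeR adjusted p under 0.05). Scaled by total counts alone, 2078 genes were higher and 6647 lower, against 3942 higher and 3897 lower in the comparison used here, and the median of all genes was -0.47 in place of -0.04. Each list held genes that rose and genes that fell. Tested were 6 of 12 listed genes for pyrimidine breakdown, 22 of 33 for eicosanoid metabolism and 11 of 15 for the SLAM list. For mucin-type O-glycosylation it was 14 of 25, for aspartic proteases 10 of 18 and for phospholipases 15 of 16. The counts below cover only the tested genes.

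In pyrimidine breakdown, 3 of 6 tested genes rose and 2 fell (median log2 fold change 0.01, against -0.04 over all genes). Dpyd and Dpys, the enzymes of the steps before Upb1, were not analysed here. Upp1, uridine phosphorylase, averaged 4.72 ± 1.58 CPM at day 6 and 1.39 ± 0.164 CPM in untreated cells (log2 fold change 1.75, SE 0.34, edgeR adjusted p = 0.000821). Of the nucleotidase genes, Nt5c3 rose by 0.74, and its relative Nt5c3b fell by 1.55 on the log2 scale. Aldh6a1, which acts on products of the pathway, had a log2 fold change of -0.75 and was not called without untreated replicate 1 (-0.58) or day 6 replicate 2 (-0.69), which left 1 falling gene. The largest change in this list was that of Upp1.

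In eicosanoid metabolism, 12 of 22 tested genes rose and 5 fell (median 0.43, against -0.04 over all genes). The list's synthases and receptors moved both ways. Tbxas1, thromboxane synthase, stood at 4.84 ± 0.639 CPM at day 6 and 0.255 ± 0.242 CPM in untreated cells (log2 fold change 4.19, SE 0.49, edgeR adjusted p = 1.90e-05). Ptger2, a prostaglandin E2 receptor gene, stood at 21.2 ± 0.928 CPM at day 6 and 1.43 ± 0.343 CPM in untreated cells (log2 fold change 3.87). The leukotriene genes Alox5 and Alox5ap rose by 2.68 and 1.87 on the log2 scale. The largest fall was in the thromboxane receptor gene Tbxa2r, by 1.30 on the log2 scale (edgeR adjusted p = 0.00336), and the prostaglandin E synthase gene Ptges3 fell by 0.59 (edgeR adjusted p = 0.0293). The reductase genes Ptgr2 and Zadh2 fell by 0.48 and 0.45. The reductase gene Ptgr1, which acts after Hpgd in prostaglandin breakdown, averaged 125 ± 7.06 CPM at day 6 and 227 ± 3.39 CPM in untreated cells (log2 fold change -0.87, SE 0.08, edgeR adjusted p = 1.75e-06). Its level was lowest at day 6, where that of Hpgd was highest. All 5 falling genes, and Ltb4r1, Ptgs1, Lta4h, Ptges and Ptges2, were named after their values were seen, and not every rising gene is named. Under scaling by total counts 8 genes of the list fell.

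Among SLAM receptors, their adaptors and partners, 6 of 11 tested genes rose and 2 fell (median 0.73, against -0.04 over all genes). Of the 6 receptor genes tested, Cd84, Cd244a and Slamf9 rose, while Ly9, Slamf6 and Slamf7 did not pass, at log2 fold changes of 0.07, 0.31 and 0.42. Cd48, the ligand of Cd244, averaged 111 ± 1.26 CPM at day 6 and 2.87 ± 0.566 CPM in untreated cells (log2 fold change 5.26, SE 0.13, edgeR adjusted p = 2.23e-10). Cd244a, a receptor known to signal through SAP family adaptors, averaged 13.8 ± 1.81 CPM at day 6 and 2.24 ± 0.633 CPM in untreated cells (log2 fold change 2.62). Cd84 rose by 1.33 and Slamf9, at a low level, by 2.64 on the log2 scale. The 2 genes that fell were the partners Fyn (log2 fold change -1.02, edgeR adjusted p = 0.00307) and Plcg1 (-0.63, edgeR adjusted p = 0.00168). The partners Plcg2 and Inpp5d rose by 1.23 and 0.73. These partners were named after their values were seen. At day 4 Cd48 stood 4.67 above untreated on the log2 scale. Its day 4 level was 66.4% of its day 6 level, and that of Sh2d1b1 was 55.5%. The median of the 1689 genes higher at day 6 was 69.5%. The other SAP family adaptors, Sh2d1a and Sh2d1b2, were not analysed here.

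In mucin-type O-glycosylation, 5 of 14 tested genes rose and 4 fell (median 0.18, against -0.04 over all genes). Among the 9 other Galnt transferases tested, the largest called change was in Galnt10. It rose by 2.26 on the log2 scale, to 3.09 ± 0.0898 CPM at day 6 against 0.635 ± 0.306 CPM in untreated cells. Galnt7 fell by 0.77 on the log2 scale. Galnt3 had a log2 fold change of 0.78 (0.35 and not called under scaling by total counts). Galnt1 stood at 0.24 (-0.19 under that scaling) and Galnt2 at -0.41. These calls did not hold in every fit with 1 library left out. Such a fit can leave 1 library in a group, so a call can be lost with the log2 fold change little moved. Galnt3 was not called without day 6 replicate 2 (0.49), Galnt1 not without untreated replicate 2 or either day 6 library (0.18, 0.25 and 0.24), and Galnt2 not without untreated replicate 1 or either day 6 library (-0.20, -0.43 and -0.40). Without day 6 replicate 2 the counts were 3 higher and 2 lower, and without day 6 replicate 1 there were 2 lower. Galnt4, Galnt6, Galnt11 and Galnt14 did not pass, at 0.05 (-0.38 under scaling by total counts), 1.18, 0.14 and -1.24. Under that scaling 3 genes of the list rose. Downstream, C1galt1c1, the chaperone of core 1 synthase, averaged 157 ± 1.22 CPM at day 6 and 27.2 ± 1.85 CPM in untreated cells (log2 fold change 2.53, SE 0.10, edgeR adjusted p = 2.17e-09), and the sialyltransferase gene St3gal1 rose by 0.99. The core 1 synthase gene C1galt1 fell to 59.0 ± 1.48 CPM at day 6, against 88.6 ± 3.11 CPM in untreated cells (log2 fold change -0.59, SE 0.08, edgeR adjusted p = 8.18e-05). Another sialyltransferase gene, St6galnac4, fell by 0.25 on the log2 scale (edgeR adjusted p = 0.0378), and both were named after their values were seen.

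Among aspartic proteases, 7 of 10 tested genes rose and 2 fell (median 0.73, against -0.04 over all genes). The largest change in this list was in Napsa, a napsin gene, which averaged 849 ± 15.8 CPM at day 6 and 322 ± 64.8 CPM in untreated cells (log2 fold change 1.40). The intramembrane protease gene Sppl2a rose by 1.03 and cathepsin E (Ctse) by 0.92, and the beta-secretase gene Bace1 fell by 1.07 on the log2 scale. Without untreated replicate 2 or without day 6 replicate 2, 1 gene fell. Among phospholipases, 7 of 15 tested genes rose and 3 fell (median 0.16, against -0.04 over all genes). Plbd2, the closest relative of Plbd1, did not pass, at means of 59.7 CPM at day 6 and 68.7 CPM in untreated cells (log2 fold change -0.20, SE 0.10, edgeR adjusted p = 0.0877), and was called lower under scaling by total counts (-0.64, edgeR adjusted p = 0.000387). The endolysosomal gene Pld4 averaged 829 ± 33.6 CPM at day 6 and 36.5 ± 2.79 CPM in untreated cells (log2 fold change 4.50, SE 0.19, edgeR adjusted p = 4.63e-09). Pla2g7, the platelet-activating factor hydrolase, rose by 3.83 from a low level, Pnpla7 rose by 1.63, and Pla2g6 fell by 1.75 on the log2 scale. Without untreated replicate 2, or either day 6 library, 1 phospholipase gene fell, and under scaling by total counts 4 rose and 7 fell.

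**Figure D5:**
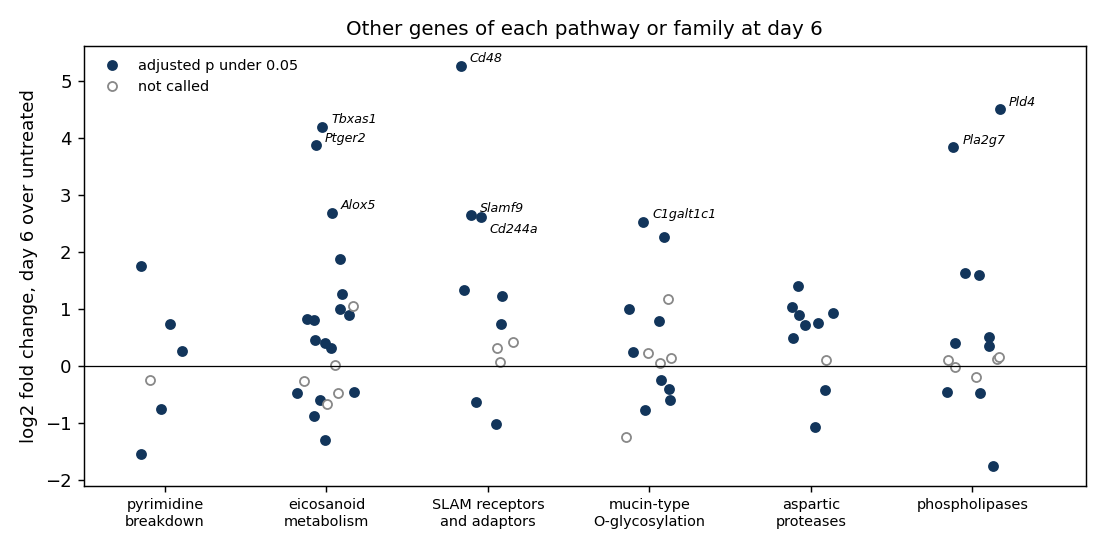
Log2 fold change at day 6 over untreated (vertical axis) of the other tested genes of each pathway or family, filled where the edgeR adjusted p was under 0.05 and open where not; the 6 genes themselves are left out. Cd48 (5.26), Pld4 (4.50) and Tbxas1 (4.19) stand highest, and each list spans values on both sides of 0.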

How the data were processed

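RNA was sequenced from sorted AML410 cells in 8 libraries, 2 in each of 4 groups. Per the file headers, the deposited tables list raw counts by Entrez gene ID beside a length for the gene. Software named in the submitters' processing notes is featureCounts, limma 3.22.0, edgeR 3.8.2 and CASAVA 1.8.2, with the build mm10, and the sources used here give no aligner or strandedness. Each gene reaches a CPM of 0.501 or more in at least 3 of the 8 libraries, so low genes are absent from the tables, and a gene silent in most groups can be missing. All 6 genes passed this and the filter below through the groups where they are high.

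Symbols came from RefSeq (GRCm38.p6, the mm10 build), which matched 12555 of 12830 IDs. All 8 libraries entered 1 fit (R 4.3.3, edgeR 4.0.16 quasi-likelihood test, filterByExpr, TMM, group means, Benjamini-Hochberg over 12330 genes, threshold 0.05), tested on simulated data. CPM are TMM-scaled. Ratios of counts carry exact conditional binomial intervals (95%).

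The 6 genes and all lists were chosen with earlier results of these data known. Named list genes are the relatives of a member's own step plus up to 4 called genes of largest change at day 6, and likeness names up to 3 genes per member, with 1 result not reported here. Alternatives were other scalings, no filter, DESeq2 1.42.0, the 2 groups alone, a replicate block and leaving out each library.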

Additional observations from a re-analysis of the deposited data

How the results depend on the processing

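The rise of the 6 genes from day 4 to day 6 kept its direction and its call under every alternative tried. Each alternative still used day 6 counts, which were part of the choice of the genes. Leaving out 1 library gave log2 fold changes of 0.61 to 0.77 (Upb1), 1.05 to 1.23 (Hpgd), 0.74 to 0.97 (Sh2d1b1), 0.61 to 0.71 (Galnt9), 3.33 to 4.14 (Asprv1) and 2.91 to 3.52 (Plbd1), with the highest edgeR adjusted p at 0.0404 (Galnt9). Scaling by total counts, which moves the median of all genes in this contrast to -0.20, gave 0.51 for Upb1 (edgeR adjusted p = 0.0170) and 0.47 for Galnt9 (edgeR adjusted p = 0.0251), with 881 genes higher and 2646 lower in place of 1961 and 1728. The count of 3689 genes called between days 6 and 4 ran from 1726 to 4193 with 1 library left out. The 756 genes called between day 2 and untreated ran from 325 (untreated replicate 2 left out) to 1325 (untreated replicate 1), were 397 without day 2 replicate 2 and 402 and 405 without each day 6 library, and were 232 when only those 2 groups were fitted. The cause was not tested.

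Replicate numbers are not said to mark a shared animal or day. The deviations of same-numbered libraries correlated at -0.14 to 0.18 between groups. With the replicate block, 3493 genes were called between days 6 and 4, 612 between day 2 and untreated, 5787 for day 4 and 7718 for day 6, and the 6 genes kept their calls, with Asprv1 at 3.69.

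Under scaling by total counts, day 6 over untreated changed sign for Galnt4 (-0.38), Galnt1 (-0.19), Uhmk1 (-0.38), Gm7694 (-0.02), Fbrsl1 (-0.07) and Atf7ip (-0.14), where the median of all genes was -0.47. Under the same scaling 8 eicosanoid genes fell, 3 mucin glycosylation genes rose, and 4 phospholipase genes rose and 7 fell. With DESeq2, 1 aspartic protease gene and 1 phospholipase gene fell. Leaving out 1 library gave 1 to 2 falling genes for pyrimidine breakdown and aspartic proteases, 1 to 3 for phospholipases, and 3 to 5 rising and 2 to 4 falling for mucin glycosylation. Depth limits the untreated and day 2 values of the 6 genes, where a library holds 0 to 32 counts, so their ratios over untreated have wide intervals.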

Other observations

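The nearest tested genes on either side of each of the 6 genes were compared between day 6 and untreated cells. Of these 12 neighbours 6 were higher, 2 lower and 4 not called (edgeR adjusted p under 0.05), where 32.0% of all genes were higher and 31.6% lower. The largest change was in Mxd1, a gene of the Myc antagonist family, 17.3 kb from Asprv1. It had 504 and 461 counts in untreated cells, 365 and 374 at day 2, 631 and 801 at day 4, and 1918 and 2444 at day 6 (log2 fold change 2.56 for day 6 over untreated, SE 0.15, edgeR adjusted p = 7.11e-08). Its counts were higher in replicate 2 at both late days, but the size of that difference was not compared with the spread of all genes. Its reads were present before Dox. Adora2a, the adenosine receptor gene 72.1 kb from Upb1, was 1.38 higher on the log2 scale (edgeR adjusted p = 0.000834), and Gucd1 on the other side 0.71 higher (0.28 and not called under scaling by total counts). Atf7ip, 1.22 kb from Plbd1, was 0.29 higher (edgeR adjusted p = 0.00738) and was not called without day 6 replicate 2 (0.27, edgeR adjusted p = 0.0575) and at -0.14 under scaling by total counts.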
